A study of Mus musculus with 6 samples.

Results

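The Cyp2 and Cyp3a genes are the cytochrome P450 genes through which the liver oxidises most drugs and many of its own lipids. All probe sets annotated to exactly 1 symbol beginning with Cyp2 and a letter, or with Cyp3a, were taken: 46 probe sets of 39 genes, out of 45101 probe sets in all. Por, the reductase gene that belongs to the same rule, and 1 further gene of the Cyp2c subfamily were not analysed here. The rule selects genes by name, and it was set with earlier results of these data known.

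Liver RNA of 3 S1P lyase knockout mice (KO 1 to 3) and 3 wild-type mice (WT 1 to 3) was read on 6 Affymetrix arrays, with 1 array for each animal. The lyase, product of Sgpl1, degrades the signalling lipid sphingosine 1-phosphate, and the study asks how lipid handling in the liver changes without it. Both groups carried a mixed C57BL6 and 129sv background and received no treatment. The labels leave the targeted allele, the age, the sex and the litter of the animals unstated, so nothing ties a knockout to a WT littermate. All values are log2 array signals, and a difference is knockout minus WT.

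A P450 enzyme holds a heme group, takes electrons from the reductase Por or from cytochrome b5, and inserts an oxygen atom into its substrate. Family members share much of their sequence and lie in clusters of neighbouring copies, and mouse subfamilies have many more copies than human ones. In hepatocytes their transcription is driven by liver factors such as HNF4A and C/EBP and by xenobiotic receptors, chiefly CAR (Nr1i3) and PXR (Nr1i2). Many are also controlled by sex and growth hormone, and many are turned down in inflammation.

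Sgpl1 itself was lower in every knockout array, at 2.78 ± 0.28 against 6.75 ± 0.13 log2 (SD, n = 3) on its brighter probe set. The knockout level lay in the range of background, so no fold is given. No pair of arrays was identical, and arrays correlated at 0.979 or more within a genotype and at 0.936 to 0.950 between genotypes. Control transcripts differed with genotype: the 3' minus 5' signal was higher in every knockout array, with mean differences of 1.01 log2 in Pcx, 0.47 in Gapdh and 0.45 in Actb. The 24 bacterial poly-A control probe sets, whose RNA is added before labelling, averaged 8.52 to 9.07 in knockout and 7.99 to 8.08 in WT arrays. The hepatocyte marker list, a check of the labelled tissue, averaged 13.17 to 13.26 in knockout and 13.31 to 13.41 in WT, with no overlap. Of its 11 tested markers, 3 were lower. The highest signal on every array was that of Alb or Apoa1 from this list. Whether differences of such bright markers are compressed was not tested. Of the other cell types, 13 of 14 neutrophil markers rose (list mean 8.16 to 8.40 in knockout against 5.03 to 5.24 in WT), as did 4 of 5 B and plasma cell markers (5.93 to 6.26 against 4.43 to 4.51). Kupffer cell and macrophage markers moved both ways, with 2 of 11 higher and 4 lower (7.46 to 7.68 against 7.67 to 8.10). Higher and lower counts were 3 and 0 of 7 for T and NK cells, 1 and 0 of 4 for erythroid cells, 2 and 1 of 8 for endothelium, 0 and 2 of 7 for stellate cells and 0 and 0 of 3 for cholangiocytes. Over all genes tested 10.3% were called higher and 7.85% lower, so the small counts of these short lists say little. Arrays without detection calls have no zero, so no marker could be read as absent. The part these differences play in the P450 values was not tested, and in whole liver fewer hepatocytes and less RNA per hepatocyte cannot be told apart.

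Most liver P450 genes of these families fell in the knockout. Of the 39 genes, 33 had a probe set above the filter on dim signals, and 21 of these were called lower, none was called higher and 12 did not pass (limma, Benjamini-Hochberg adjusted p under 0.05 over 27022 probe sets). Over all 13370 genes tested, each read by its brightest probe set, 7.85% were called lower and 10.3% higher. The median difference of the 33 genes was -0.81 log2, beside -0.05 for all genes tested. Of the 33 tested genes, 12 were called lower by at least 1 log2, beside 1.63% of all genes tested. The genotypes did not overlap in 24 of the 33 genes, beside 40.8% of all genes. In 23 of them each knockout value was under each WT value, as in 21.8% of all genes. Cyp2d40 and Cyp2r1 are among the 23, though their knockout means lay below the filter. The difference was below 0 in 32 of the 33 genes on the deposited scale, beside 55.6% of all genes. It was so in 31 with arrays centred on hepatocyte markers, where Cyp2s1 came to 0.032, and in 33 with arrays centred on the poly-A controls, where Cyp3a13 came to -0.21. The count of genes called lower was 13 without KO replicate 2.

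**Figure D1:**
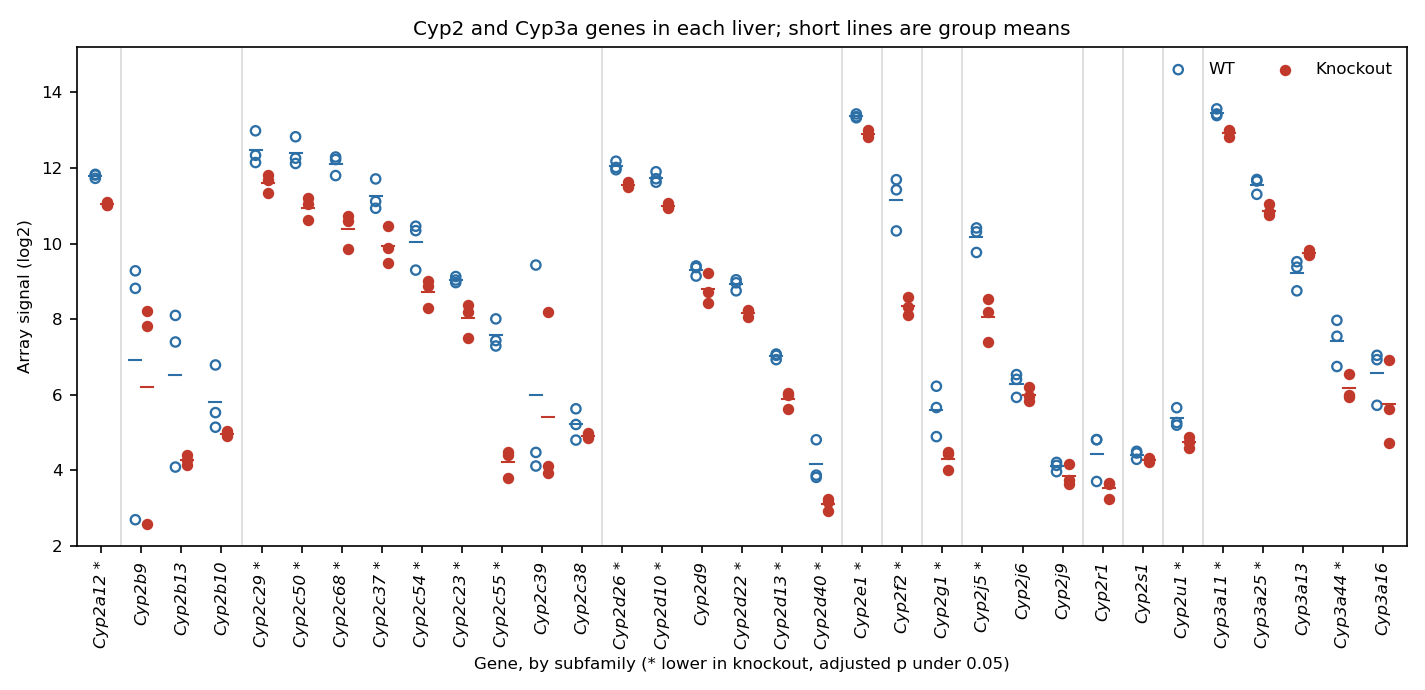
Array signal (log2) of the 33 tested Cyp2 and Cyp3a genes in each of the 3 knockout livers (filled red) and 3 WT livers (open blue), ordered by subfamily, with group means as short lines and an asterisk on the 21 genes called lower. Knockout points lie below WT points in 23 genes, and Cyp2b9 and Cyp2c39 are spread over several log2 units within each genotype.

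The most abundant genes took part throughout. Genes whose WT mean exceeded 11 log2 numbered 253 over the whole table, and 34% of them were called lower. All 11 Cyp2 and Cyp3a genes at that level were called lower, with a median difference of -0.75. At 9 to 11 log2, where Cyp2d9 and Cyp3a13 did not pass, 3 of 5 were called lower, beside 24.1% of all genes. At 7 to 9 log2 it was 4 of 4, beside 11.7% of all genes, and at 5 to 7 log2 it was 2 of 9, beside 5.51%. Below 5 log2 it was 1 of 4, where 3.39% of all genes were called lower. That gene was Cyp2d40, whose knockout mean lay below the filter. The 6 genes that did not reach the filter (Cyp2b19, Cyp2c65, Cyp2d12, Cyp2d34, Cyp2j11 and Cyp2j13) had group means of 2.39 to 3.28 log2, in the range of background, and differences of -0.42 to -0.11.

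**Figure D2:**
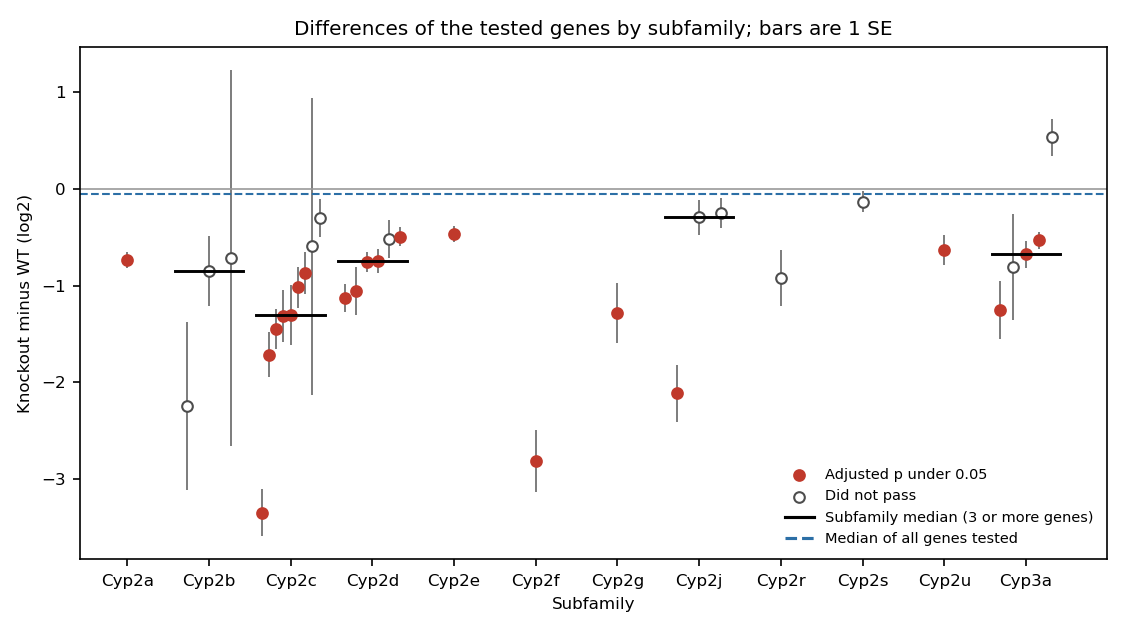
Knockout minus WT difference (log2) of each tested gene by subfamily, with bars of 1 SE, filled red where the adjusted p was under 0.05; black lines are medians of subfamilies with at least 3 tested genes, and the dashed line is the median of all genes tested (-0.05). The Cyp2c median is -1.31 and the Cyp2j median -0.29, and Cyp3a13 alone lies above 0.

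The Cyp2c genes, which include the liver's main epoxygenases of arachidonic acid, had the lowest median of the subfamilies with at least 3 tested genes when all arrays were used. Without WT replicate 3 the Cyp2b median was lower, at -2.84. Of 9 tested, 7 were called lower and 2 did not pass, with a median of -1.31 log2 and called falls of 0.87 to 3.35. Cyp2d genes followed closely in number, with 5 of 6 called lower, but their median was -0.75 and their steepest call -1.13. Of the Cyp3a genes 3 of 5 were called lower (median -0.68), of Cyp2j genes 1 of 3 (median -0.29) and of Cyp2b genes none of 3 (median -0.84). Cyp2a12, Cyp2e1, Cyp2f2, Cyp2g1 and Cyp2u1, each the only tested gene of its subfamily here, were called lower, while Cyp2r1 and Cyp2s1 did not pass. These medians are descriptions with no test between subfamilies. The within-array difference of the Cyp2c mean and the Cyp2d mean was 0.04 to 0.35 log2 in knockout and 0.27 to 1.08 in WT, so the genotypes overlapped. This overlap, of KO 3 with WT 2, turned on Cyp2c39, which did not pass. That gene read 8.18 in KO 3 and 9.43 in WT 1 but 3.94 to 4.47 in the other livers, where it lowered the Cyp2c mean more. The difference of the Cyp2c and Cyp3a means was -1.20 to -0.46 in knockout and -0.29 to 0.04 in WT, with no overlap. This separation turned on Cyp3a13, which was higher in the knockout without passing. With Cyp3a13 left out of the Cyp3a mean, KO 3 lay above WT 3. The difference of the Cyp2d and Cyp3a means was -1.30 to -0.81 in knockout against -1.05 to -0.24 in WT, with overlap.

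Cyp2c55, an arachidonic acid hydroxylase that CAR and PXR can induce in liver, showed the steepest fall of the tested Cyp2 and Cyp3a genes. It read 4.47, 4.42 and 3.79 log2 in the knockout livers and 7.29, 7.43 and 8.01 in WT. The groups were far apart, with the knockout near the dim end of the scale, and the fold was 10.2 (difference -3.35, SE 0.24, limma adjusted p = 0.00015). Cyp2c55 lies at one end of the Cyp2c cluster on chromosome 19. Cyp2f2, which in liver is typical of hepatocytes near the portal vein and activates naphthalene, came next. It read 8.31, 8.60 and 8.10 in knockout and 11.42, 11.69 and 10.33 in WT, a 7.03-fold fall (-2.81, SE 0.32, adjusted p = 0.00119). WT 3 was the lowest of the WT values and still lay well above all knockout values. The 150 bases before the annotated start of each (RefSeq, GRCm38.p6) are shown because these genes lost most. Capitals mark any match to AGGTCA, the core letters of many nuclear receptor sites, CAAAGTC, part of the HNF4A motif, or TATAAA, each searched on both strands.
Cyp2c55, chr19:39006869-39007018, plus strand: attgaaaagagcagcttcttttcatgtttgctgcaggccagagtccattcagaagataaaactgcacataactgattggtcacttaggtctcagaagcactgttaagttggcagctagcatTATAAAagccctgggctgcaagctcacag
Cyp2f2, chr7:27119805-27119954, plus strand: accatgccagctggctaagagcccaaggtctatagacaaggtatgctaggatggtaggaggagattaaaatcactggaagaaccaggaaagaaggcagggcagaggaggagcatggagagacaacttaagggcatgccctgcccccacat
Cyp2c55 holds TATAAA close to its start, and no match lay in this stretch of Cyp2f2, which has AGGTCA farther upstream within 250 bases.

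The other Cyp2c genes that fell are abundant in liver. Cyp2c68 read 10.61, 10.72 and 9.84 log2 in knockout and 11.80, 12.29 and 12.22 in WT, a 3.28-fold fall (-1.71, SE 0.23, adjusted p = 0.00254). Cyp2c50, an epoxygenase, read 11.04, 10.62 and 11.20 in knockout and 12.12, 12.26 and 12.83 in WT, a 2.73-fold fall (-1.45, SE 0.21, adjusted p = 0.00318). In both genes the groups were apart by more than the spread within either. Cyp2c37, whose enzyme hydroxylates arachidonic acid, fell 2.49-fold (-1.32, SE 0.27, adjusted p = 0.0135). Its neighbour Cyp2c54 fell 2.47-fold (-1.31, SE 0.31, adjusted p = 0.0249). Cyp2c23, an epoxygenase also known from kidney, fell 2.03-fold (-1.02, SE 0.21, adjusted p = 0.0151). Cyp2c29, another epoxygenase, fell 1.83-fold (-0.87, SE 0.22, adjusted p = 0.028). Cyp2c54 lost its call without any 1 of 5 arrays (the exception was WT replicate 2), Cyp2c29 without KO replicate 1 or 2 and Cyp2c37 without KO replicate 2. Cyp2c38 did not pass, at 4.92 ± 0.07 in knockout and 5.21 ± 0.41 in WT.

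Cyp2c37 and Cyp2c50, which fell by similar amounts, have promoters that match in 84.3% of an alignment over 250 bases, the closest pair among the Cyp2c genes with a promoter entry. Their last 150 bases before the start are shown for that likeness, with capitals as above.
Cyp2c37, chr19:39992274-39992423, plus strand: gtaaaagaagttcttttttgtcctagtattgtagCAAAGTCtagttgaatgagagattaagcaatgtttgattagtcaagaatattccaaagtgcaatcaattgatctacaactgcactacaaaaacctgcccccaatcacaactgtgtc
Cyp2c50, chr19:40089529-40089678, plus strand: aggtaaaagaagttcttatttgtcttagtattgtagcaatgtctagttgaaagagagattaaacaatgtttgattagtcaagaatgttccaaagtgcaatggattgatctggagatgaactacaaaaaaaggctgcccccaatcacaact
Cyp2c37 has CAAAGTC, and Cyp2c50 has no match to that motif within its 250 bases. Both genes were called lower, and the part of the motif was not tested. Promoters were listed for 31 of the 39 genes. CAAAGTC was found in 9 of these 31 (29%), against 3.8% of the 27025 promoters of the table. Among the tested genes with an entry it occurred in 4 of 15 that were called lower and 4 of 12 that were not. AGGTCA occurred in 32.3% of the 31 and 13.8% of all promoters, and TATAAA in 45.2% and 13%. AGGTCA was present in 6 of the 15 genes called lower and 3 of the 12 not called. TATAAA was present in 10 of the 15 genes called lower and 3 of the 12 not called. Paralogous promoters share letters by descent, so these shares are not independent observations. The motifs were also chosen after the promoters were seen, so shares above those of all promoters cannot be read as an enrichment.

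The Cyp2d genes, among them drug and steroid hydroxylases clustered on chromosome 15, fell in 5 of 6 tested cases, by 0.49 to 1.13 log2 on the brightest probe sets. Cyp2d13, a transcribed pseudogene in the RefSeq annotation, read 6.04, 5.63 and 5.99 log2 in knockout and 7.08, 7.04 and 6.93 in WT on its brighter probe set, with no overlap. It fell 2.19-fold there (-1.13, SE 0.14, adjusted p = 0.00184) and 4.06-fold on the other probe set (-2.02, SE 0.14, adjusted p = 0.000105). Cyp2d10 fell 1.69-fold, from 11.75 ± 0.14 to 10.99 ± 0.08 (SD, n = 3; -0.75, SE 0.10, adjusted p = 0.00275). Cyp2d22 fell 1.68-fold (-0.75, SE 0.12, adjusted p = 0.00544) and Cyp2d26 1.41-fold (-0.49, SE 0.10, adjusted p = 0.0113). Cyp2d40 was called lower (adjusted p = 0.0238), with 2.94, 3.16 and 3.23 in knockout and 3.87, 4.81 and 3.81 in WT. Its knockout mean of 3.11 lay below the filter of 3.58, in the range of background, so it was tested only through its WT level and no fold is given. With the filter at the 60th percentile, which removes it, 20 of 29 genes were called lower. The call of Cyp2d40 was lost without KO replicate 1 or 2. Cyp2d26 did not pass on the hepatocyte-centred scale. Cyp2d9, a testosterone hydroxylase that is higher in males of many strains, read 9.22, 8.71 and 8.43 in knockout and 9.37, 9.14 and 9.41 in WT and did not pass. KO 1 lay within the WT range, and without KO replicate 1 the gene was called lower.

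Of the Cyp3a genes, whose main hepatic member is the PXR target Cyp3a11, 3 fell and 1 was higher without passing. Cyp3a11 read 12.99, 12.82 and 12.97 log2 in knockout and 13.43, 13.39 and 13.56 in WT. The groups were tight and apart, and the fall was 1.44-fold (-0.53, SE 0.09, adjusted p = 0.0055). Cyp3a25 fell 1.60-fold (-0.68, SE 0.14, adjusted p = 0.012). Cyp3a44, which is higher in females, fell 2.39-fold (-1.26, SE 0.30, adjusted p = 0.0249). Cyp3a25 lost its call without KO replicate 2, and Cyp3a44 without KO replicate 2 or 3 or WT replicate 1 or 3. Cyp3a16, known as a P450 of fetal and young liver, read 6.93, 5.61 and 4.73 in knockout and 6.93, 5.72 and 7.04 in WT, with overlap.

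Cyp3a13 was the 1 tested gene of the 33 that was higher in the knockout. It read 9.83, 9.73 and 9.69 log2 in knockout and 9.52, 8.75 and 9.37 in WT, and every knockout value exceeded every WT value. The difference of 0.53 (SE 0.19, adjusted p = 0.0901) did not pass on the deposited scale. It passed with arrays centred on hepatocyte markers and with array quality weights, and was -0.21 with arrays centred on the poly-A controls. Cyp3a13 comes first in the order of the 5 Cyp3a genes along chromosome 5. The promoters of Cyp3a11 and Cyp3a13 are shown because the 2 genes differed in direction, with capitals as above.
Cyp3a11, chr5:145879855-145880004, minus strand: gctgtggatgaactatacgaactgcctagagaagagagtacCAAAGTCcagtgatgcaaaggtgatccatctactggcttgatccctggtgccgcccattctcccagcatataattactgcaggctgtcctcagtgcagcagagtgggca
Cyp3a13, chr5:137921620-137921769, minus strand: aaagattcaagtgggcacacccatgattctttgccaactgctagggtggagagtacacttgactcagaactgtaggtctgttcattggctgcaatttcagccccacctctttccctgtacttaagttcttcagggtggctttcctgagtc
Cyp3a11 holds CAAAGTC in this stretch and all 3 motifs within 250 bases. None of the 3 motifs was matched in the 250 bases before Cyp3a13. No match says only that these letters are not in this window.

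Cyp2e1, Cyp2a12 and Cyp2j5 also fell, by very different amounts. Cyp2e1, the ethanol and acetaminophen oxidase of hepatocytes around the central vein, read 12.90, 12.82 and 13.01 log2 in knockout and 13.33, 13.36 and 13.43 in WT. Its groups did not overlap and its fall of 1.38-fold was the smallest among the called genes (-0.46, SE 0.08, adjusted p = 0.00746). The highest signal on any array was 14.3 log2, so Cyp2e1 and Cyp3a11 were read near the top of the scale, and whether their folds are compressed was not tested. Cyp2a12, a steroid and bile acid hydroxylase, fell 1.67-fold, from 11.79 ± 0.06 to 11.05 ± 0.04 (SD, n = 3; -0.74, SE 0.09, adjusted p = 0.00135). Cyp2j5, an epoxygenase of liver and kidney, read 7.40, 8.54 and 8.19 in knockout and 10.31, 10.41 and 9.76 in WT. All knockout values were well below WT, a 4.34-fold fall (-2.12, SE 0.29, adjusted p = 0.00264), and its other probe set fell 2.83-fold. Its cluster neighbours on chromosome 4 differed less, Cyp2j6 by -0.29 (SE 0.18) and Cyp2j9 by -0.25 (SE 0.15), neither passing.

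Among the fainter members, Cyp2g1, best known from olfactory mucosa, fell 2.44-fold (-1.29, SE 0.31, adjusted p = 0.0244) and Cyp2u1, a fatty acid hydroxylase, 1.55-fold (-0.63, SE 0.16, adjusted p = 0.0267). Both calls depended on single arrays. Cyp2g1 lost its call without KO replicate 1 or 2 or WT replicate 1. Cyp2u1 lost it without KO replicate 1 or 2 or WT replicate 2, and on the hepatocyte-centred scale. Cyp2r1, a vitamin D 25-hydroxylase, read 3.24, 3.65 and 3.67 log2 in knockout and 3.71, 4.81 and 4.81 in WT. Its knockout mean of 3.52 lay below the filter of 3.58, so like Cyp2d40 it was tested only through its WT level. The values just failed to overlap and the difference of -0.92 (SE 0.29, adjusted p = 0.0624) did not pass. It passed without WT replicate 1, and also when arrays were weighted by quality. Cyp2s1 differed by -0.13 (SE 0.11).

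The Cyp2b genes and Cyp2c39 varied widely between animals of 1 genotype. Cyp2b9, a steroid hydroxylase that is higher in females, read 8.23, 7.81 and 2.59 log2 in knockout and 9.28, 8.82 and 2.69 in WT. KO 3 and WT 3 were at background and the other animals of both genotypes were bright, a within-group SD of 3.14 and 3.68. Cyp2b13, a close copy next to it on chromosome 7, read 4.41, 4.28 and 4.14 in knockout and 8.10, 7.40 and 4.09 in WT. WT 3 was low here too, but KO 1 and KO 2, which were bright for Cyp2b9, were as low as KO 3. Cyp2b10, the classic target of CAR, read 4.91, 5.03 and 4.98 in knockout and 6.79, 5.53 and 5.14 in WT. Every knockout value lay below every WT value, and WT 1 stood above the rest on this and both fainter Cyp2b10 probe sets. Cyp2c39, a retinoic acid hydroxylase in the Cyp2c cluster, read 3.94, 4.12 and 8.18 in knockout and 9.43, 4.11 and 4.47 in WT. Here KO 3 and WT 1 were bright and the other 4 animals dim.

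**Figure D3:**
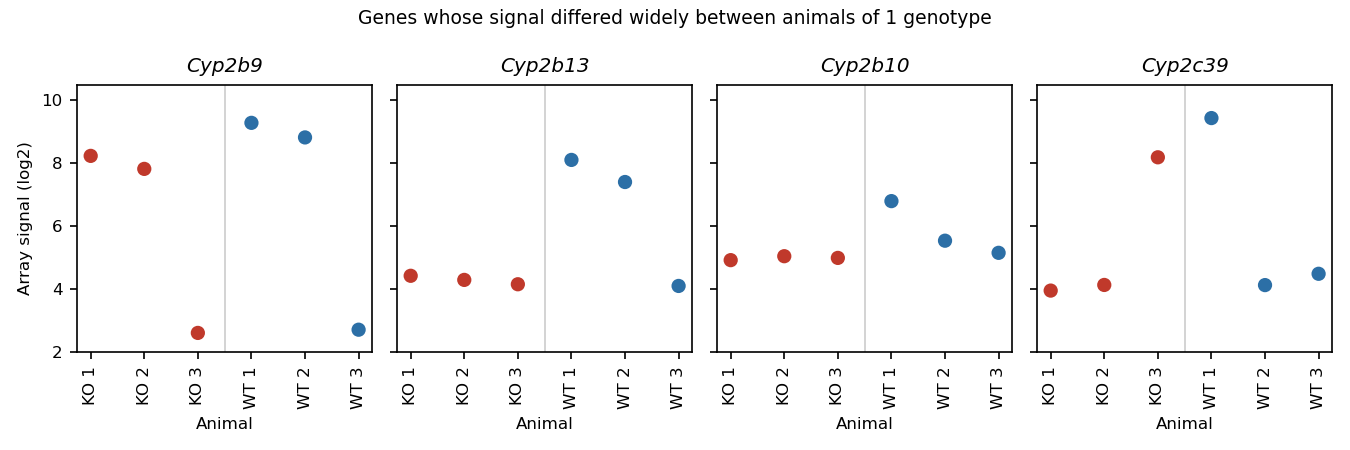
Array signal (log2) of Cyp2b9, Cyp2b13, Cyp2b10 and Cyp2c39 in each of the 3 knockout (red) and 3 WT (blue) livers. KO 3 and WT 3 are at background for Cyp2b9, WT 1 and WT 2 alone are bright for Cyp2b13, and KO 3 and WT 1 alone are bright for Cyp2c39.

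None of these 4 genes passed the test, with differences of -0.72 (SE 1.95) for Cyp2b9, -2.25 (SE 0.87) for Cyp2b13, -0.84 (SE 0.36) for Cyp2b10 and -0.59 (SE 1.54) for Cyp2c39. Without WT replicate 3 the Cyp2b median was -2.84, and both Cyp2b13 and Cyp2b10 were called lower. Cyp2b13 also passed with array quality weights. In all, 4 of the 33 genes, Cyp2b9, Cyp2b13, Cyp2c39 and Cyp3a16, had a within-group SD above the 99th percentile of all tested probe sets. Of the sex markers, Xist, made by the inactive X chromosome, read 11.09 to 11.41 in knockout and 10.72 to 10.95 in WT. It was called higher (0.46, SE 0.12, limma adjusted p = 0.0316). The 3 Y-linked markers with a probe set were below the filter. Their highest values in knockout and WT were 2.69 and 3.08 for Kdm5d, 2.57 and 2.76 for Uty, and 2.32 and 2.31 for Eif2s3y. Xist was thus bright and these Y-linked markers dim in all 6 livers, whether Cyp2b9 or Cyp2c39 was bright or dim there. The part of sex in the split was not tested.

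The promoters of Cyp2b9 and Cyp2b13 match at 248 of 250 positions, the closest of 465 pairs. They are printed in full because the 2 genes were unlike in the knockout livers, with capitals at the 2 positions that differ.
Cyp2b9, chr7:26173159-26173408, plus strand: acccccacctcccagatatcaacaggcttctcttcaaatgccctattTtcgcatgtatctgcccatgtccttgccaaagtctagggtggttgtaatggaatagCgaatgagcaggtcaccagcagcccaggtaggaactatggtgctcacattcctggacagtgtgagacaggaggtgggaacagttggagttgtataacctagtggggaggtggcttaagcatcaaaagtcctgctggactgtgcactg
Cyp2b13, chr7:26061245-26061494, plus strand: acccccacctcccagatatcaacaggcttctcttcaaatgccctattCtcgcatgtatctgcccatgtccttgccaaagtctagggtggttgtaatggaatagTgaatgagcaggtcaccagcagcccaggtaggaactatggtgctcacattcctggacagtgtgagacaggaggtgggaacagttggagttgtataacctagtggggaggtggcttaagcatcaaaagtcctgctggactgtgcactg
Counted from the 5' end of the printed stretch, with the base of Cyp2b9 first, the changes are T48C and C104T. These are letters of the reference genome, and those of the animals were not read.

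Genes that serve the P450 enzymes were compared as lists, whose counts stand beside 7.85% lower and 10.3% higher over all genes tested. Of the electron donors and membrane partners 5 of 6 tested genes were called lower and none higher, with a median of -0.60 log2. The cytochrome b5 gene Cyb5a fell 1.45-fold, its outer mitochondrial membrane form Cyb5b 1.87-fold, and Cyb5r3, which reduces cytochrome b5, 1.48-fold. Pgrmc1, a heme-binding protein that associates with P450 enzymes, fell 1.65-fold, and Fdx1, the ferredoxin of mitochondrial P450 enzymes, 1.56-fold. In heme synthesis and breakdown, 3 of 11 were lower and 1 higher (median -0.25). The heme synthesis genes Alad, Uros and Urod were each called lower, by -0.49 (SE 0.14), -0.49 (SE 0.11) and -0.50 (SE 0.10). Alas1, the enzyme that limits heme synthesis, differed by -0.25 (SE 0.20) and did not pass. Hmox1, which breaks heme down, read 8.72, 8.51 and 8.59 in knockout and 6.27, 6.92 and 7.24 in WT, and rose 3.48-fold. It is also made by macrophages, whose markers moved both ways. Of the 3 Cyp1 genes, Cyp1a2, a main pericentral P450, fell 5.88-fold, from 12.43, 11.82 and 11.96 in WT to 8.90, 9.33 and 10.31. Cyp1a1 and Cyp1b1 did not pass.

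**Figure D4:**
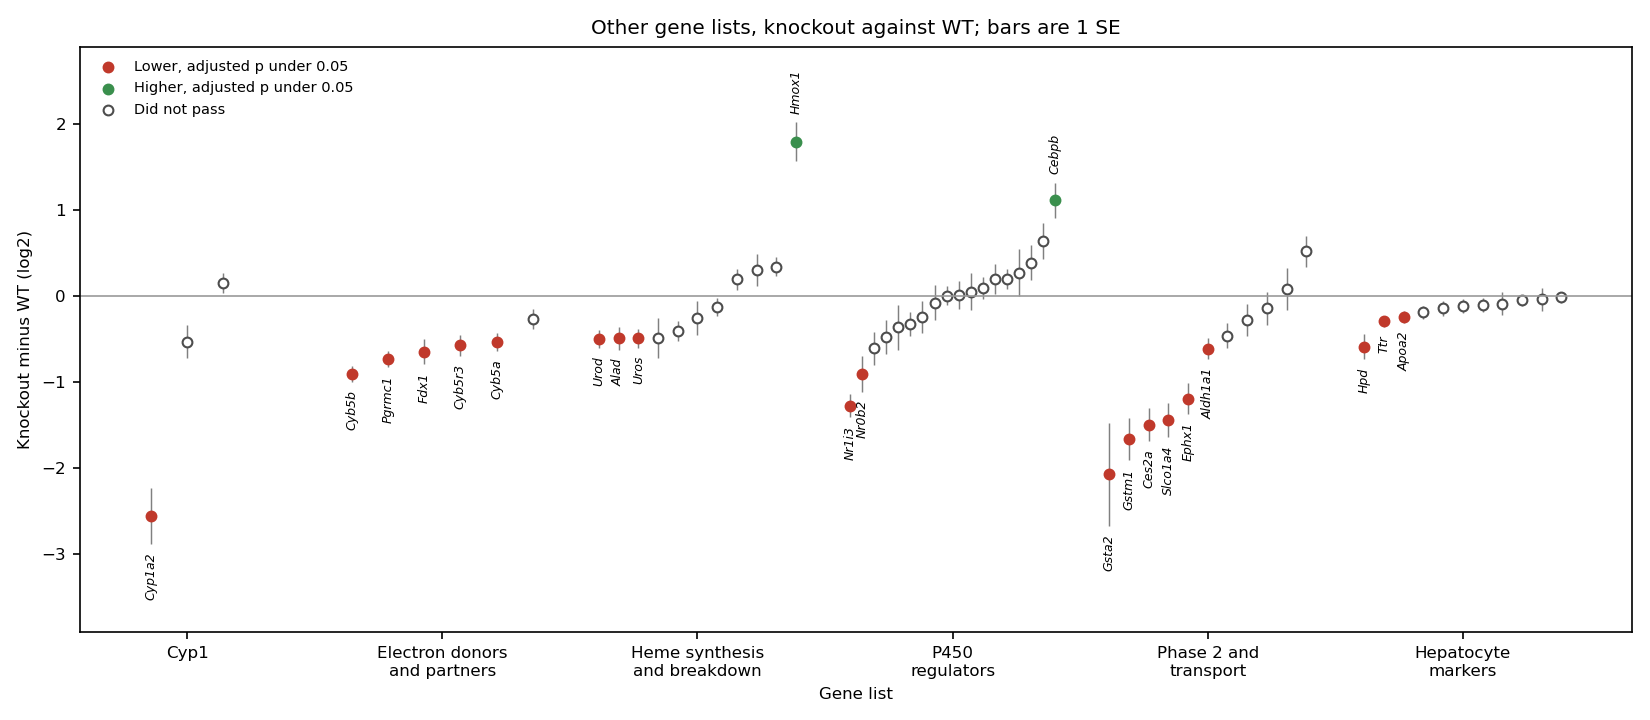
Knockout minus WT difference (log2) with bars of 1 SE for tested genes of 6 other lists, red where called lower, green where called higher and open where the test was not passed. Cyp1a2 (-2.56) and Hmox1 (1.80) lie farthest below and above 0, and 15 of the 18 regulators did not pass.

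Of 18 regulator genes tested, 2 were lower, 1 higher and 15 not called, with a median of 0.01 log2. That share of calls is near the 18.2% of all genes called in either direction, so the count says nothing particular about regulators. The CAR gene Nr1i3 was the clearest, at 7.71, 7.35 and 7.40 in knockout and 8.85, 8.65 and 8.77 in WT. The groups lay over 1 log2 apart on average, a 2.41-fold fall (-1.27, SE 0.14, adjusted p = 0.000905). Nr0b2, the corepressor SHP, fell 1.87-fold, and Cebpb, a C/EBP factor of the acute phase, rose 2.17-fold. Cebpa, the other C/EBP gene of the list, differed by -0.61 (SE 0.19, adjusted p = 0.0622) and did not pass. Each of its knockout values lay below each WT value. The PXR gene Nr1i2 differed by 0.39 (SE 0.20), and Hnf4a by -0.07 (SE 0.20), neither passing. Conjugation and transport genes that share these regulators were lower in 6 of 11 cases and higher in none (median -0.61). The glutathione transferase gene Gstm1 fell 3.17-fold, the carboxylesterase gene Ces2a 2.81-fold, the organic anion carrier gene Slco1a4 2.71-fold and the epoxide hydrolase gene Ephx1 2.28-fold. These lists moved in the same arrays as the neutrophil markers, whose median difference was 3.98, and as the higher 3' minus 5' values.

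The scale of the arrays bears on small differences. The median of all genes was -0.05 as deposited, moved up by 0.17 with hepatocyte marker centring, and moved down by 0.75 with poly-A centring. Each centring moves the Cyp2 and Cyp3a genes and all other genes alike. With hepatocyte markers 19 genes were called lower, beside 3.91% of all genes, and Cyp3a13 was called higher. With poly-A controls 32 were called lower and none higher, beside 75.4% of all genes, so that count says little on that scale.

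**Figure D5:**
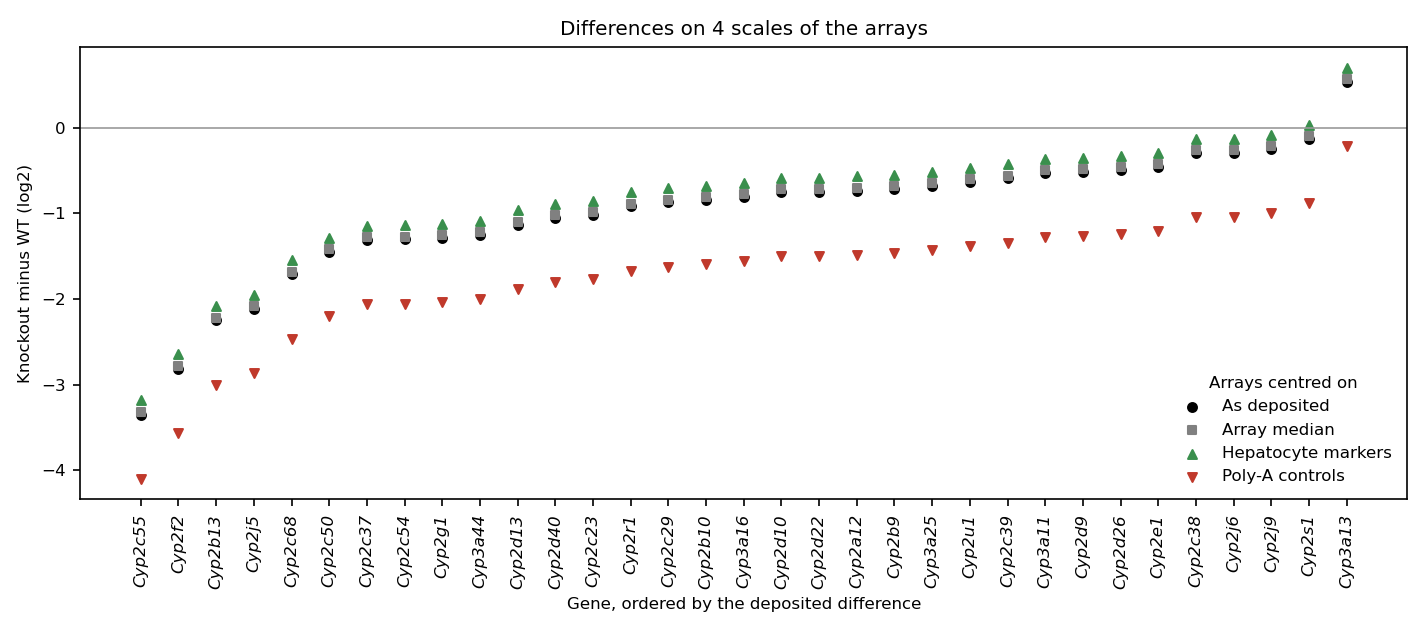
Knockout minus WT difference (log2) of the 33 tested genes on the deposited scale and with arrays centred on the array median, on hepatocyte markers or on poly-A controls, ordered by the deposited difference. Centring shifts all genes together, by 0.17 upwards for hepatocyte markers and 0.75 downwards for poly-A controls, and only Cyp2s1 and Cyp3a13 cross 0.

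Where a gene had several probe sets they mostly pointed the same way. Of 6 genes with more than 1 probe set, 4 had more than 1 above the filter, and in 3 of these (Cyp2d13, Cyp2d22 and Cyp2j5) every tested probe set was called lower. The exception, Cyp2j6, had neither called. In total 24 of the 37 tested probe sets were called lower and none higher, beside 7.82% and 10.1% of all tested probe sets, and 27 did not overlap between genotypes, beside 40%. The identifiers of 7 of the 46 probe sets mark them as able to read several transcripts, Cyp2f2 and Cyp2c23 among them. Such transcripts may belong to the same gene. Near-identical copies in these clusters may share signal on any probe set.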

How the data were processed

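The authors deposited 1 log2 signal per probe set and array. That the scale is log2 was read from the range of the values. MAS5 is named in the submitters' processing notes with no version or role, while the sources used here leave scaling, background correction and summarization unnamed. Probe sets were named by the platform annotation and GRCm38.p6 gene identifiers. The 64 array controls and probe sets under the 40th percentile of mean signal (3.58 log2) were left out, leaving 27022. Knockout and WT arrays were set against each other in limma 3.58.1 under R 4.3.3 (lmFit, eBayes with intensity trend, two-sided, Benjamini-Hochberg over all tested probe sets), a call being an adjusted p under 0.05. The fit was tested on simulated data. A gene was read by its brightest tested probe set. Only called genes are said to rise or fall, and folds are powers of 2 of log2 differences. With 3 arrays per group, their number limits precision. Control values were compared by exact permutation, which cannot go below p = 0.1, the value reached by each 3' minus 5' difference and the poly-A mean. Every Cyp2 and Cyp3a gene could be named, and from other lists at most 4 genes with the smallest adjusted p, except that Fdx1, Alas1, Nr1i2, Hnf4a and Cyp27a1 were added after seeing their values. Members and lists were chosen with earlier results of these data known, and the motifs after the promoters were seen. Promoters are RefSeq, 250 bases before the first listed start, aligned with Biopython 1.88.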

Additional observations from a re-analysis of the deposited data

How the results depend on the processing

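Of the 21 genes called lower, 12 kept their call in all 16 other settings, 9 lost it in at least 1 and 0 changed sign. Leaving out 1 array at a time gave 13 to 21 genes called lower, 0 called higher and 2517 to 4639 probe sets called in the whole table (2605 without KO replicate 1 and 2517 without KO replicate 2), with medians of -0.95 to -0.72 log2 for all members, -2.84 to -0.36 for Cyp2b, -1.52 to -1.09 for Cyp2c, -0.79 to -0.71 for Cyp2d, -0.47 to -0.24 for Cyp2j and -0.80 to -0.55 for Cyp3a. It took Cyp2b9 from -2.84 to 1.09 and Cyp2c39 from -1.98 to 1.12. With poly-A centring 32 genes were called lower and 21028 probe sets were called, the medians were -1.56 for all members, -2.05 for Cyp2c, -1.50 for Cyp2d, -1.04 for Cyp2j and -1.43 for Cyp3a, and Cyp3a13 was -0.21. With hepatocyte marker centring 1 gene was called higher, Cyp2s1 was 0.032 and the Cyp2d median was -0.58. Array quality weights gave 1 gene called higher and a Cyp2c median of -0.97. The Cyp2d median was -0.63 without a filter, where 2 dim genes enter, and the Cyp2j median -1.21 with a filter at the 60th percentile, which leaves fewer genes. The whole table, beside 4835 calls, gave 2482 with 1 probe set per gene and 2402 with probe sets averaged per gene, where fewer features are tested. For the other changes the cause was not tested. The planned covariate of Y-linked signal was not run, since those probe sets were dim on all arrays. No paired analysis was possible because the labels carry no replicate numbers. Without detection calls, signals near the filter cannot be told from background.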

Other observations

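Probe sets naming several genes of these families lay outside the choice of members and were also lower in the knockout. The probe set for Cyp3a41b or Cyp3a41a, P450 genes that are higher in females, read 6.51, 5.96 and 6.22 log2 in knockout and 10.55, 9.51 and 8.06 in WT, with no overlap (-3.14, SE 0.53, limma adjusted p = 0.0059). The probe set for Cyp2a5 or Cyp2a4, of which Cyp2a5 hydroxylates coumarin, read 9.75, 9.06 and 10.06 in knockout and 11.23, 11.66 and 11.54 in WT (-1.85, SE 0.24, adjusted p = 0.00205). The falls were 8.84-fold and 3.61-fold.

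Of 25 tested P450 genes outside the Cyp2 and Cyp3a groups, 7 were called lower and 2 higher, a share lower of 28% beside 7.85% of all genes. Cyp4f14 fell most, 10.8-fold (-3.43 log2, SE 0.17, limma adjusted p = 3.19e-05), and Cyp7a1 fell 3.99-fold. Cyp27a1, a mitochondrial sterol hydroxylase, fell 2.01-fold, from 10.34 ± 0.22 to 9.33 ± 0.30 log2 (SD, n = 3; SE of the difference 0.18, adjusted p = 0.00734). Cyp4f18, a P450 known from neutrophils, rose 3.76-fold, from 3.74 ± 0.09 to 5.65 ± 0.23 (SE 0.14, adjusted p = 0.000174), in arrays where 13 of 14 neutrophil markers rose. The WT mean of Cyp4f18 lay close to the filter of 3.58 and cannot be told from background, so its fold is uncertain. These genes were picked out with their values known.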
